A study of Mus musculus with 6 samples.

Results

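The histocompatibility and peptide loading genes described here are 10 genes, 5 of class I antigen presentation (H2-K1, H2-D1, B2m, Tap1 and Tapbp) and 5 of class II (H2-DMa, H2-DMb1, H2-Aa, H2-Ab1 and Cd74). They were listed by symbol, with no threshold on their values, and matched to Ensembl gene IDs in a table of 55335 genes. All 10 were found, and all 10 passed the filter on low values, a mean of at least 1 FPKM over the libraries, which 12860 genes met. FPKM is fragments per kilobase of transcript, scaled to the fragments mapped in the library.

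Polyadenylated RNA came from lysates of mouse sciatic nerve at postnatal day 14. Control nerves (3 libraries) carried RhoAfl/fl, a homozygous floxed allele of the small GTPase RhoA, and icKO nerves (3 libraries) carried RhoAfl/fl with ChATCreERT2+, an inducible Cre under the choline acetyltransferase gene, which is active in cholinergic neurons such as motoneurons. Both groups therefore carry the floxed allele, and only icKO mice carry the Cre. The labels do not give sex, litter, the H2 haplotype of the strains, the time of induction or whether control mice received the inducing drug, nor whether each library is from its own animal. The spread that a p-value is measured against may therefore be technical.

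Class I molecules carry peptides from the cytosol to the surface of nearly every nucleated cell. The immunoproteasome cuts the peptides, the TAP transporter moves them into the endoplasmic reticulum, and tapasin helps load them on a heavy chain bound to beta-2 microglobulin. Class II molecules carry peptides of material that has been taken up, and are made mainly by macrophages, dendritic cells and B cells. Their alpha and beta chains assemble on the invariant chain Cd74, and H2-DM then exchanges the remnant of that chain for a peptide. In promoters of both classes, X and Y boxes form a shared module, on which the transactivator NLRC5 acts for class I genes and CIITA for class II genes.

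The sequences of this module are shown first, because the 2 transactivator genes and the promoter shared by Tap1 and Psmb9 return in the results. Stretches before the start of transcription came from the RefSeq promoter table of build GRCm38.p6, which holds 250 bases before and 50 after each start. Entries of 8 of the 10 members were searched (7 of them on chromosome 17 and B2m on chromosome 2). H2-Ab1 had no entry, and Cd74 was not searched. The authors named GRCm39, so these coordinates are not those of their alignment. Searched on both strands were GGGGATTCCCC (the kappaB site of class I enhancer A, with its letters read from the H2-K1 promoter), GGGACTTTCC (a kappaB form, read from the other strand of the B2m promoter), GAANNGAAA and GAAANNGAAA (forms of the interferon response element, which do not overlap in the stretches shown), TGACG (X2 box core), TAGNAAC (X1 box core) and CCAAT (Y box). Capitals mark the matches (in H2-Aa, TGACGTCA holds TGACG on both strands, overlapping), and a match is a string of letters, not a measured site.

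H2-K1 (minus strand, chr17:34000354-34000463): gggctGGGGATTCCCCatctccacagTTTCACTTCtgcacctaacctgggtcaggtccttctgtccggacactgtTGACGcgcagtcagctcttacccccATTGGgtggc
H2-D1 (plus strand, chr17:35262918-35263027): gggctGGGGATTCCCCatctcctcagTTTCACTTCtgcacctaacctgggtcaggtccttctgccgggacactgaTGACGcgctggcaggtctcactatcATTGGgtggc
B2m (plus strand, chr2:122147542-122147643): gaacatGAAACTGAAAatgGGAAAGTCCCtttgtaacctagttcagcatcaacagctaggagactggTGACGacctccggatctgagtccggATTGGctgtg
H2-Aa (minus strand, chr17:34287863-34287908): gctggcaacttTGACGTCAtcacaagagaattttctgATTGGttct
H2-DMb1 (plus strand, chr17:34153091-34153138): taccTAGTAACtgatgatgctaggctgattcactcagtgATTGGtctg
H2-Eb1 (plus strand, chr17:34305770-34305817), a further class II beta chain gene: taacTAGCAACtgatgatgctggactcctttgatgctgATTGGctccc

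The H2-K1 and H2-D1 stretches had the same letters at 99 of 110 positions, with the enhancer A site, the interferon element, TGACG and the reversed Y box ATTGG at the same spacing in both. GGGGATTCCCC was found in 0.0307% of 32544 distinct promoter windows of 300 bases. GAANNGAAA was found in 7.57% of them, GAAANNGAAA in 3.45%, GGGACTTTCC in 0.157%, TGACG in 20.9%, TAGNAAC in 11.4% and CCAAT in 37.4%. TGACG followed by ATTGG 24 to 26 bases further on was in the windows of H2-K1, H2-D1, B2m and H2-Aa, and in 0.203% of all windows. The windows of Tap1, Tapbp, H2-DMa, H2-DMb1 and H2-Eb1 lacked this pair. H2-DMb1 and H2-Eb1 held the X1 box core TAGNAAC with ATTGG further on.

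Of the 10 members, 9 fell in icKO nerves and none rose. Among all 12860 tested genes 22.1% were called lower, 20.8% higher and 42.9% either way (limma, Benjamini-Hochberg adjusted p under 0.05 on log2(FPKM + 1)). The median difference of the members was -1.17 on the log2(FPKM + 1) scale, against -0.01 over all tested genes. The 5 class II members all fell, with a median of -2.22, and 4 of the 5 class I members fell, with a median of -0.45. Tap1 did not pass. For the same 9 genes, every icKO library lay below every control library, as in 28.9% of all tested genes with icKO lower and 57.2% in either direction. The members are a small family chosen with earlier results of these data known, and 8 of them lie in a gene cluster on chromosome 17, so their count is no independent evidence.

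**Figure D1:**
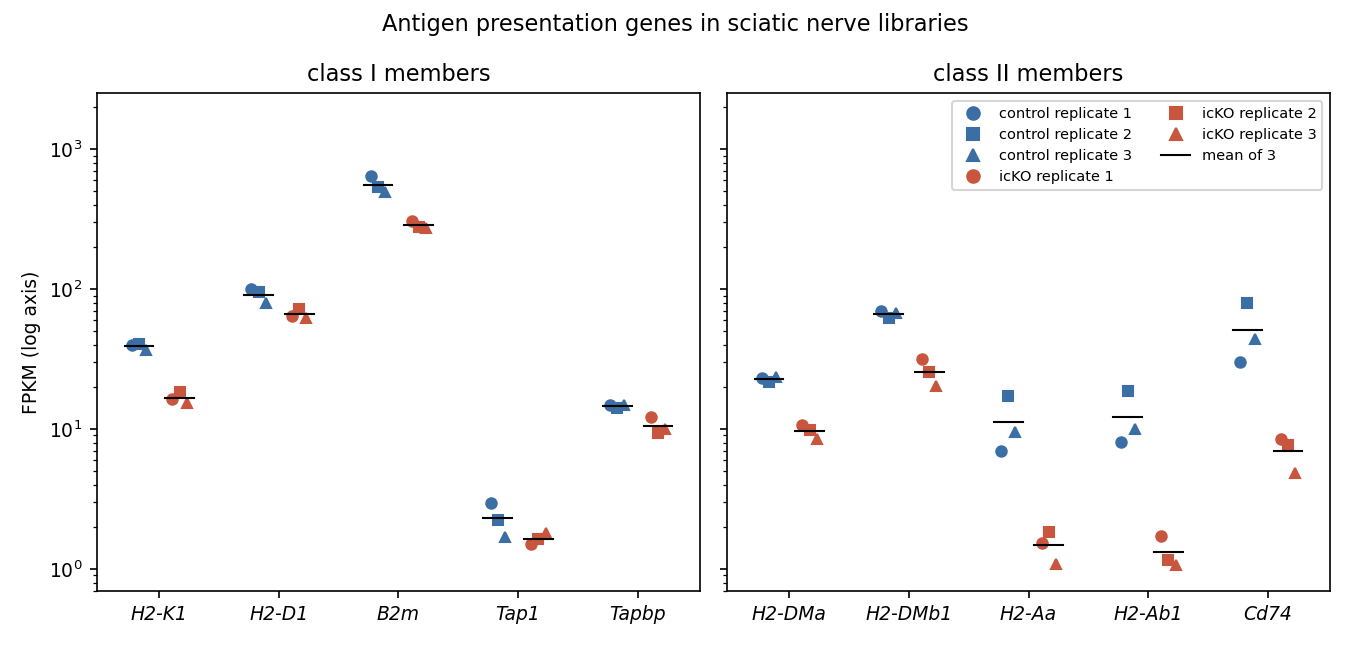
FPKM of the 5 class I members (left) and the 5 class II members (right) in each library, on a log axis. Points are single libraries, with shape for the replicate number and colour for the group, and bars are means of 3 libraries. H2-Aa, H2-Ab1 and Cd74 show the widest gaps between the groups and the widest spread within control, and only Tap1 overlaps between the groups.

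Facts of the libraries bear on these values. The depth, estimated from the smallest FPKM steps, was 17200000 to 20700000 fragments. Xist was at 46.1 FPKM in control replicate 2 with no other library above 0.0282 FPKM, and the Y-linked gene Ddx3y was at 0 in control replicate 2 and at 12.5 to 16.1 FPKM elsewhere, so sex is not balanced between the groups. Acta1, a skeletal muscle actin, was at 309 FPKM in control replicate 1 and 771 FPKM in icKO replicate 3, against 2.15 to 80.6 FPKM in the other 4 libraries. Rhoa averaged 37.9 ± 1.24 FPKM in control, against 34.4 ± 1.75 FPKM in icKO nerves (n = 3 per group, SD), which did not pass (limma, Benjamini-Hochberg adjusted p = 0.195). The Cre acts in cholinergic neurons, whose cell bodies lie outside the nerve.

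Of the class I heavy chains, H2-K1 (ENSMUSG00000061232) was at 40.2, 40.7 and 37.0 FPKM in control replicates 1, 2 and 3, and at 16.3, 18.3 and 15.3 FPKM in icKO replicates 1, 2 and 3. The libraries of each group lay close together and the groups were far apart. The log2 difference was -1.19 (SE 0.09, limma, Benjamini-Hochberg adjusted p = 0.000563), and mean FPKM was 2.36-fold higher in control.

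H2-D1 (ENSMUSG00000073411), the other classical heavy chain gene, stood higher and changed less. Its levels were 99.8, 94.8 and 79.7 FPKM in control, against 64.7, 71.6 and 62.4 FPKM in the icKO group, with control replicate 3 only slightly above icKO replicate 2. The log2 difference was -0.45 (SE 0.11, limma, Benjamini-Hochberg adjusted p = 0.017). The call was lost without control replicate 1 or 2 or icKO replicate 1 (adjusted p = 0.0516, 0.0612 and 0.0523), and without both libraries rich in muscle transcripts (0.0855, and 0.0162 to 0.0855 over all alternatives).

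The unequal change shows within libraries. FPKM of H2-K1 was 0.402, 0.430 and 0.464 of that of H2-D1 in the control libraries and 0.252, 0.256 and 0.246 in the icKO libraries. These ratios do not overlap. Heavy chain genes resemble each other, and of the sequences of 50 bases in the longest coding transcript of H2-K1 8.79% also occur in transcripts of other genes, 6.94% in H2-D1. For H2-D1 the share was 14.3%, with H2-Q1 the largest partner. How fragments with several matches were counted is not given in the sources used here, so the levels of both, and their ratio, are uncertain. The shared percentages do not bound that uncertainty, because it also depends on the level of the partner gene.

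B2m (ENSMUSG00000060802) encodes the light chain that all class I heavy chains share. It was the most abundant member, at 638, 534 and 496 FPKM in control, against 307, 279 and 273 FPKM in the icKO group. Every icKO library lay far below every control library, and the log2 difference was -0.95 (SE 0.12, limma, Benjamini-Hochberg adjusted p = 0.00164). None of its 50-base sequences occurs in another gene. FPKM of B2m over the sum of H2-K1 and H2-D1 was 3.94 to 4.56 in control and 3.10 to 3.79 in icKO libraries.

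The loading genes had the lowest levels of class I. Tapbp (ENSMUSG00000024308), the tapasin gene, was at 14.9, 14.2 and 14.8 FPKM in control, against 12.2, 9.41 and 10.0 FPKM in the icKO group. Its log2 difference was -0.45 (SE 0.10, limma, Benjamini-Hochberg adjusted p = 0.015). It did not pass without control replicate 3 (adjusted p = 0.0544) or without both muscle-rich libraries (0.0782, and 0.00743 to 0.0782 over all alternatives).

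Tap1 (ENSMUSG00000037321), a subunit of the peptide transporter, was the lowest class I member. It was at 2.99, 2.23 and 1.69 FPKM in control, against 1.50, 1.64 and 1.82 FPKM in the icKO group. Control replicate 3 lay below icKO replicate 3, and control replicate 1 was the highest library. The log2 difference of -0.30 (SE 0.15) did not pass (limma, Benjamini-Hochberg adjusted p = 0.157), nor did it in any of the 17 alternatives in which Tap1 was tested (0.0612 to 0.375). From FPKM, transcript length and depth, these levels correspond to about 79 to 152 fragments a library.

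Tap1 and Psmb9, an immunoproteasome subunit gene, start in opposite directions with 225 bases between their RefSeq starts. These bases are printed on the plus strand, the strand of Tap1, with the CCAAT next to the Psmb9 start and the TGACG nearer to Tap1 in capitals.

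Tap1 and Psmb9 (chr17:34187331-34187555, GRCm38.p6): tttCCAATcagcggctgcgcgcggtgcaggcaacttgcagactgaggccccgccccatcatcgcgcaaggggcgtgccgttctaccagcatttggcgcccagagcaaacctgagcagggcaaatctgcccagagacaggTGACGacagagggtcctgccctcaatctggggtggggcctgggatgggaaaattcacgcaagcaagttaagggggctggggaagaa

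Psmb9 was at 1.91, 1.25 and 0.972 FPKM in control, against 0.284, 0.481 and 0.638 FPKM in the icKO group. It missed the filter and was not tested, and its groups did not overlap. About 7 to 44 fragments a library stand behind it. In both genes the highest library was control replicate 1.

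Class II members differed from each other in their spread within control. The H2-DM genes, whose products load peptides, were even within control. H2-DMa (ENSMUSG00000037649) was at 23.1, 21.6 and 23.4 FPKM in control, against 10.7, 9.83 and 8.53 FPKM in the icKO group. H2-DMb1 (ENSMUSG00000079547) was at 70.0, 62.5 and 67.9 FPKM in control, against 31.5, 25.5 and 20.2 FPKM in the icKO group. Neither gene overlapped between the groups, and in both the lowest library was icKO replicate 3. The log2 differences were -1.15 (SE 0.10) for H2-DMa and -1.36 (SE 0.16) for H2-DMb1 (limma, Benjamini-Hochberg adjusted p = 0.000661 and 0.00131). H2-DMb1 shares 27.2% of its 50-base sequences with the neighbouring copy H2-DMb2, which fell too, from 2.01 ± 0.14 to 0.890 ± 0.026 FPKM (n = 3 per group, SD).

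The chains and the invariant chain were uneven within control and low in every icKO library. H2-Aa (ENSMUSG00000036594), the class II alpha chain, was at 6.92, 17.2 and 9.56 FPKM in control, against 1.53, 1.85 and 1.08 FPKM in the icKO group. Its partner beta chain H2-Ab1 (ENSMUSG00000073421) was at 8.05, 18.6 and 9.94 FPKM in control, against 1.72, 1.15 and 1.07 FPKM in the icKO group. Cd74 (ENSMUSG00000024610) was at 30.3, 79.2 and 43.7 FPKM in control, against 8.45, 7.64 and 4.89 FPKM in the icKO group. In all 3 genes control replicate 2 was the highest library and control replicate 1 the lowest of control, still well above every icKO library.

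Mean FPKM in control was 7.56-fold that in icKO nerves for H2-Aa, 9.27-fold for H2-Ab1 and 7.30-fold for Cd74. The log2 differences were -2.22 (SE 0.30), -2.44 (SE 0.28) and -2.62 (SE 0.35), and understate the change of H2-Aa and H2-Ab1 because 1 is added to low FPKM values. They passed with limma (Benjamini-Hochberg adjusted p = 0.0021, 0.00135 and 0.0021), and Cd74 stood at the percentile 0.156 from the bottom of all tested genes. Without control replicate 2, the library with Xist, the log2 differences were -1.89, -2.12 and -2.26, and all 3 still passed (limma, Benjamini-Hochberg adjusted p = 0.00398, 0.00288 and 0.0047). The icKO levels of H2-Aa and H2-Ab1 rest on about 24 to 40 fragments a library.

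Proportions among the chain genes overlapped between the groups for some pairs and not for others. FPKM of Cd74 was 4.37 to 4.60 times that of H2-Aa in control and 4.13 to 5.52 times in icKO libraries. H2-Aa over H2-Ab1 was 0.860 to 0.961 in control and 0.889 to 1.61 in icKO libraries. H2-Eb1 over H2-Ab1 was 0.750 to 0.847 in control and 0.952 to 1.35 in icKO libraries, with no overlap. FPKM of Cd74 over H2-DMb1 was 0.432, 1.27 and 0.644 in control and 0.268, 0.30 and 0.242 in icKO libraries, and did not overlap either. The split of class II members into chains and H2-DM was made after their values were seen.

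To set class I against class II, log2(FPKM + 1) was averaged over the 5 members of each class in each library. The class I level was 5.47, 5.33 and 5.19 in control and 4.69, 4.67 and 4.62 in icKO libraries, a difference of -0.67. The class II level was 4.37, 5.06 and 4.61 in control and 2.92, 2.78 and 2.46 in icKO libraries, a difference of -1.96. Both classes were lower in every icKO library than in any control library. Class II minus class I was -1.09, -0.27 and -0.58 in control and -1.77, -1.89 and -2.15 in icKO libraries, lower in icKO by 1.29 on average. Because the members were chosen with results known, these levels are given without a test. Gene by gene the classes were not fully apart, as H2-K1 (-1.19, SE 0.09) differed about as much as H2-DMa (-1.15, SE 0.10). The order of H2-K1 and H2-DMa reversed without control replicate 2 (-1.166 and -1.184) and without icKO replicate 1 (-1.18 and -1.221).

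**Figure D2:**
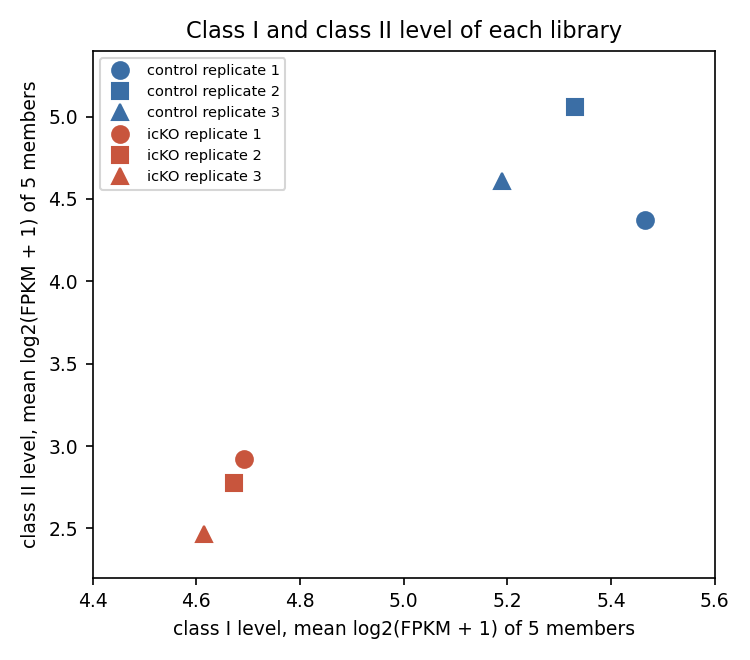
Class I level (x axis) and class II level (y axis) of each library, both as the mean log2(FPKM + 1) of 5 members. The 3 icKO libraries lie below and to the left of the 3 control libraries, and control replicate 1 has the highest class I level (5.47) with the lowest class II level of its group (4.37).

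Most other genes of the class I route fell too. The counts of this and later lists stand beside 22.1% called lower and 20.8% called higher over all tested genes. Of 6 genes for loading and trimming in the endoplasmic reticulum 5 fell, with a median log2 difference of -0.70. Tapbpl, a relative of tapasin that edits peptides, fell from 3.84 ± 0.46 to 1.37 ± 0.21 FPKM, and Pdia3, a disulfide isomerase of the loading complex, from 98.7 ± 13.5 to 54.4 ± 2.18 FPKM (n = 3 per group, SD). Calr, Canx and Pdia3 also serve the folding of other proteins. Tap2, the partner of Tap1, was at 7.18 ± 0.79 and 5.70 ± 0.55 FPKM and did not pass (limma, Benjamini-Hochberg adjusted p = 0.066). Among genes of at least 5 FPKM on average, where Tapbpl and Erap1 were not tested, 3 of the list fell.

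All 4 tested genes of the immunoproteasome and of PA28, its activator, fell, with a median of -0.59. Psme1 and Psme2, the PA28 subunits, fell, Psme1 from 10.1 ± 0.63 to 6.29 ± 0.62 FPKM and Psme2 from 15.6 ± 0.23 to 9.07 ± 0.90 FPKM (n = 3 per group, SD). Of the inducible catalytic subunits, Psmb8 fell from 3.16 ± 0.56 to 1.78 ± 0.13 FPKM and Psmb10 from 12.5 ± 0.79 to 9.08 ± 1.47 FPKM. Psmb10 did not pass in 5 of the 6 fits with 1 library left out, all but that without icKO replicate 3, nor without a filter (limma, Benjamini-Hochberg adjusted p = 0.00787 to 0.079 over all alternatives). In limma none of the 3 constitutive catalytic subunits, which the inducible ones replace, passed (1 was lower at an unadjusted p under 0.05), with a median of -0.21. Psmb7 was at 17.1 ± 0.675 and 14.5 ± 0.590 FPKM and Psmb5 at 35.8 ± 2.29 and 30.8 ± 3.01 FPKM in control and icKO nerves (n = 3 per group, SD). Without icKO replicate 3, or without both muscle-rich libraries, 2 of them were called lower.

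Other heavy chain genes of the class I type went both ways. Of 12 tested, 5 fell, 1 rose and 6 missed the threshold, with a median of -0.38, and 3 fell without control replicate 2 and 1 among genes of at least 5 FPKM. Cd1d1, which presents lipids to T cells, fell from 4.59 ± 0.11 to 0.930 ± 0.052 FPKM (n = 3 per group, SD), with a log2 difference of -1.53 (SE 0.08). This was the smallest adjusted p of all the antigen presentation genes examined (limma, Benjamini-Hochberg adjusted p = 0.000262). H2-Q10 was at 1.72, 2.42 and 2.72 FPKM in control, against 0.0791, 0.0580 and 0.0887 FPKM in the icKO group, and fell too, with the caution that heavy chain genes share sequence. The member that rose was Hfe, a regulator of iron uptake that also binds beta-2 microglobulin, from 6.03 ± 0.40 to 15.6 ± 4.96 FPKM. Fcgrt, an antibody receptor of the same fold, was at 48.2 ± 1.87 and 41.7 ± 8.64 FPKM and did not pass.

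Among class II genes outside the members, H2-Eb1 followed the chains. It was at 6.03, 15.7 and 7.58 FPKM in control, against 2.23, 1.56 and 1.02 FPKM in the icKO group, again with control replicate 2 highest. The log2 difference was -1.97 (SE 0.34, limma, Benjamini-Hochberg adjusted p = 0.00469). It and H2-DMb2 were the 2 tested of 5 other class II genes in the table, and both fell.

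Enzymes that process material for class II moved both ways. Of 8 tested, 2 fell, 2 rose and 4 did not pass, which is near the shares over all tested genes (22.1% lower, 20.8% higher). The protease genes Ctsl and Lgmn rose, Ctsl from 17.4 ± 3.77 to 43.9 ± 11.9 FPKM and Lgmn from 20.0 ± 4.46 to 35.9 ± 0.23 FPKM, while Ctsb fell from 109 ± 21.5 to 56.8 ± 5.27 FPKM (n = 3 per group, SD). Sppl2a, an intramembrane protease that cleaves the Cd74 remnant, fell from 10.7 ± 0.71 to 6.78 ± 0.12 FPKM. Ctss, the main protease of the invariant chain in antigen-presenting cells, was at 6.74, 15.4 and 10.9 FPKM in control, against 13.0, 11.5 and 14.0 FPKM in the icKO group, overlapping and not called (limma, Benjamini-Hochberg adjusted p = 0.445).

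**Figure D3:**
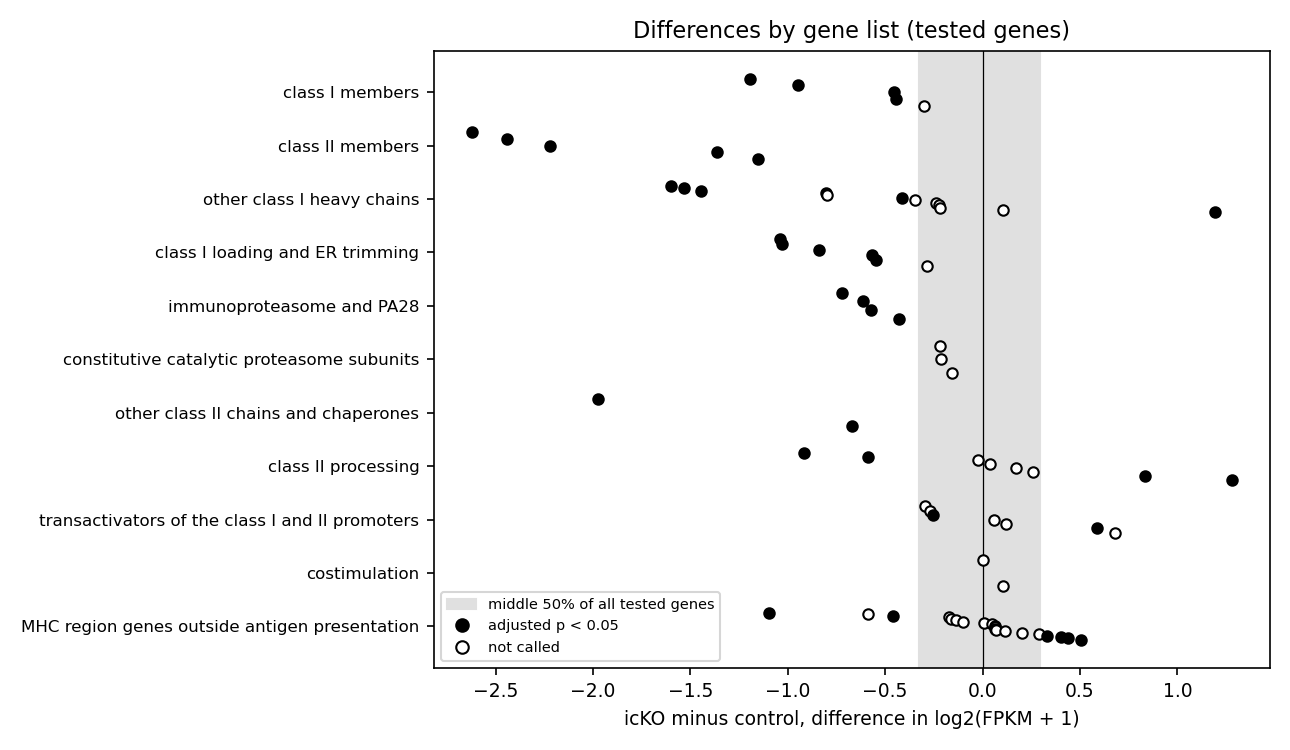
Difference between icKO and control in log2(FPKM + 1) (x axis) for every tested gene of the members and of 9 related lists (y axis). Filled points passed an adjusted p under 0.05 in limma, open points did not, and the grey band is the interquartile range of all tested genes (-0.33 to 0.30). H2-Aa, H2-Ab1 and Cd74 lie farthest to the left, and class II processing genes and other genes of the same chromosome region lie on both sides of 0.

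Genes of the same region of chromosome 17 that have no part in antigen presentation were mostly not called. Of 20 such genes, all tested, 4 rose, 2 fell and 14 missed the threshold, with a median log2 difference of 0.06. Over all tested genes 20.8% were called higher, 22.1% lower and 42.9% either way. Ddx39b, an RNA helicase gene, rose from 33.7 ± 1.82 to 48.1 ± 1.75 FPKM, and Tubb5, a tubulin gene, fell from 185 ± 8.31 to 86.8 ± 12.5 FPKM (n = 3 per group, SD). Atf6b, a stress sensor gene, fell by 0.46 on the log2 scale. Without control replicate 3, 2 of them rose. The members B2m and Cd74 lie on chromosomes 2 and 18, outside the cluster, and both fell.

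The transactivators of the module were too low to test. Nlrc5, which acts on class I promoters, was at 1.29, 0.659 and 0.318 FPKM in control, against 0.168, 0.172 and 0.203 FPKM in the icKO group. Ciita, which acts on class II promoters, was at 0.175, 0.279 and 0.137 FPKM in control, against 0.0369, 0.0236 and 0.0188 FPKM in the icKO group. Neither overlapped between the groups. Nlrc5 was highest in control replicate 1, as was the class I level, and Ciita in control replicate 2, as was the class II level. Not every member followed this order. H2-K1 was highest in control replicate 2, where H2-DMa and H2-DMb1 were the lowest of control. Ciita was also higher in control replicate 1 than 3, while the class II level was lower (4.37 against 4.61). A link between these levels was not tested. About 23 to 168 fragments a library stand behind Nlrc5 and about 2 to 35 behind Ciita. Of the 7 tested genes of the DNA-binding factors that hold these transactivators, Nfyb rose from 4.20 ± 0.24 to 6.82 ± 0.42 FPKM and Nfya fell from 4.54 ± 0.36 to 3.64 ± 0.14 FPKM (n = 3 per group, SD). Nfya was close to the threshold (limma, Benjamini-Hochberg adjusted p = 0.0449) and did not pass in 5 of the 6 fits with 1 library left out, all but that without control replicate 1.

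Interferon signalling is known to induce both routes. Irf9, a DNA-binding subunit of the factor that type I interferons activate, was at 10.3, 4.09 and 6.14 FPKM in control, against 3.36, 3.15 and 2.33 FPKM in the icKO group. Control replicate 1 was the highest library and the groups did not overlap. Irf9 and its partner Stat2 fell but were close to the threshold (limma, Benjamini-Hochberg adjusted p = 0.0369 and 0.0455). Irf9 missed it in 8 of 17 alternatives and Stat2 in 11 of 17, both of them without control replicate 1, without control replicate 3 and without icKO replicate 1 or 3. Irf1 was at 6.19 ± 0.27 and 4.61 ± 1.76 FPKM (n = 3 per group, SD) and did not pass. The interferon gamma gene Ifng was listed at 0 in all 6 libraries, and its receptor gene Ifngr1 was at 13.7 ± 1.54 and 15.0 ± 1.40 FPKM.

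**Figure D4:**
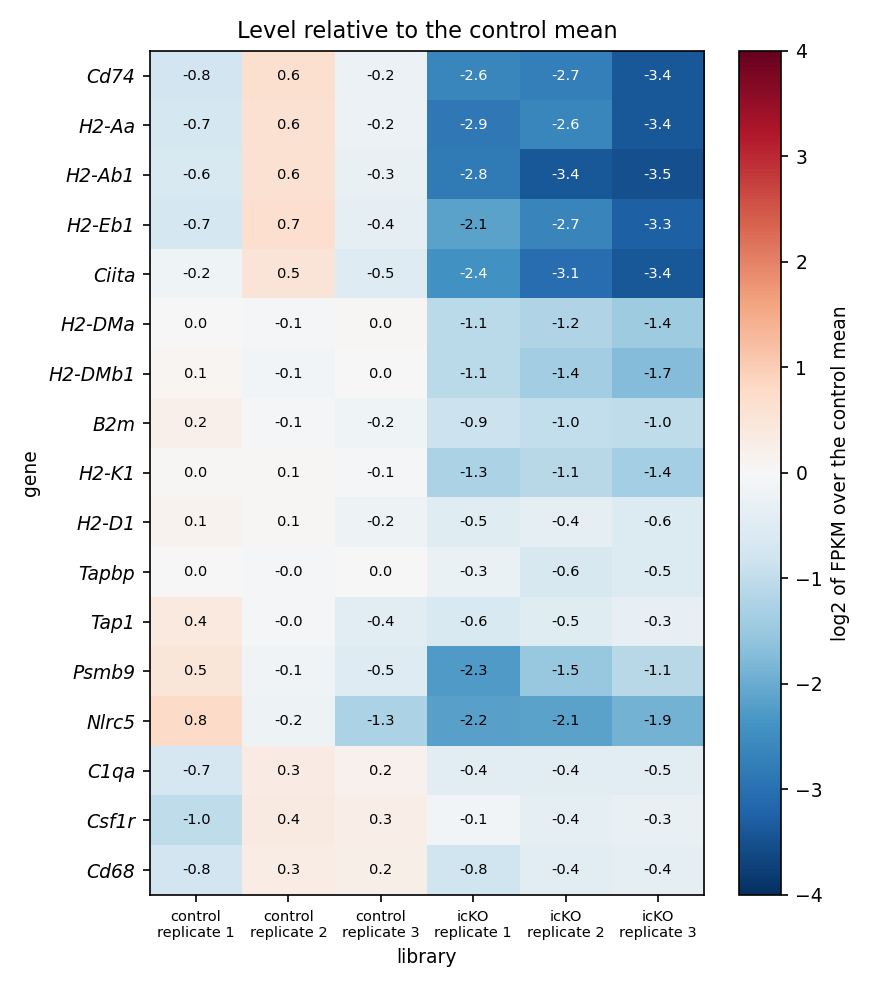
Log2 of FPKM over the control mean of each gene (rows) in each library (columns), with the value in each cell. Cd74, H2-Aa, H2-Ab1, H2-Eb1 and Ciita are highest in control replicate 2, Nlrc5, Tap1, Psmb9 and B2m in control replicate 1, and the macrophage genes C1qa, Csf1r and Cd68 are low in control replicate 1.

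In a lysate, fewer cells of a type and less RNA per cell cannot be told apart, so markers of the cells that make class II molecules are given beside these falls. Summed over 17 macrophage markers, the level was 138 to 283 FPKM in control, against 181 to 199 FPKM in the icKO group, so the groups overlap. In limma none of the 13 tested fell (0 also at an unadjusted p under 0.05), and 1 rose, Mertk, a receptor for dying cells, from 14.9 ± 2.11 to 43.2 ± 7.31 FPKM (n = 3 per group, SD). This count rests on control replicate 1, the library lowest in these markers, and without it 9 fell, as without both muscle-rich libraries. The other 4 markers missed the filter, and in all 4 every icKO library lay below every control library. How often this occurs among genes under the filter was not computed (28.9% among tested genes). Itgam, an integrin gene of myeloid cells, was at 0.295, 1.81 and 1.46 FPKM in control, against 0.125, 0.107 and 0.155 FPKM in the icKO group. Mean levels in control and icKO nerves were 1.15 and 0.478 FPKM for Aif1, 1.13 and 0.470 FPKM for Fcgr1, and 0.459 and 0.198 FPKM for Ptprc, a gene common to leukocytes. Relative to C1qa, a complement gene of macrophages at 20.6, 41.4 and 36.6 FPKM in control, against 24.4, 24.1 and 23.9 FPKM in the icKO group, Cd74 was at 1.47, 1.91 and 1.19 in control and 0.346, 0.317 and 0.204 in icKO libraries. The groups stayed far apart on this ratio, which rests on 1 of the 17 markers. Itgam, under the filter, was alone among them in falling as far as Cd74. Its icKO mean was 10.8% of its control mean, against 13.7% for Cd74. A ratio to Itgam was not computed. FPKM of H2-DMb1 over C1qa was 1.51 to 3.40 in control and 0.845 to 1.29 in icKO libraries.

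Most markers of dendritic cells and B cells, which also present antigen, were low. Of 9 dendritic cell markers 6 were under 1 FPKM in every library, and the sum of all 9 was 5.19 to 6.21 FPKM in control, against 5.52 to 6.57 FPKM in the icKO group. Neither of the 2 tested passed. Of the 7 that missed the filter, 3 lay higher in every icKO library than in any control library, and 1, Cd209a, lay lower. Mean levels of these 3 in control and icKO nerves were 0.0149 and 0.149 FPKM for Flt3, 0.745 and 1.20 FPKM for Batf3, and 0.528 and 0.630 FPKM for Clec9a. Among tested genes 57.2% did not overlap in either direction, and the share among genes under the filter was not computed. The count is therefore no result about dendritic cells. Of 6 B cell markers 5 were under 1 FPKM throughout, with Ms4a1 and Pax5 at or near 0. The other, Ighm, fell from 7.01 ± 2.32 to 1.74 ± 0.82 FPKM (n = 3 per group, SD), and the summed level was 4.58 to 9.22 FPKM in control, against 1.29 to 3.23 FPKM in the icKO group. T and NK cell markers summed to 0.815 to 1.28 FPKM in control, against 0.380 to 0.456 FPKM in the icKO group. Trac made up most of the control sum, and its mean was 0.897 FPKM there against 0.208 FPKM with the Cre. Mean levels of Cd3g, Klrb1c and Nkg7 were also lower in icKO nerves, while those of Cd3e, Cd3d, Cd4 and Cd8a were higher. None of these 8 markers was tested, and 7 were under 1 FPKM in every library. Neutrophil markers summed to 0.379 to 1.08 FPKM in control, against 0.678 to 5.54 FPKM in the icKO group. Lymphatic endothelial markers summed to 22.3 to 49.4 FPKM in control, against 7.59 to 16.7 FPKM in the icKO group, mostly Ccl21a, and adipocyte markers to 466 to 571 FPKM and 102 to 170 FPKM. The part of these cells in the falls of the members was not tested. The costimulation genes Cd80 and Cd40 stayed under 1 FPKM in all libraries, and neither tested gene of that list, Cd86 and Icam1, passed. Cd274, an inhibitory ligand of T cells, missed the filter at 1.95, 1.24 and 1.07 FPKM in control, against 0.236, 0.276 and 0.408 FPKM in the icKO group, with control replicate 1 highest.

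Across the 6 libraries, the tested genes outside the members whose centred log2(FPKM + 1) values lay nearest to the class I level were 2310033P09Rik, Myh14, Adamtsl5, Adamtsl2 and Eml2. Their root mean square difference from it was 0.03 to 0.06, closer than any member of the class itself (0.12 to 0.27). For the class II level they were Fbln7, Hexa, H2-Eb1, Cpxm2 and Crispld2, at 0.10 to 0.21, where the members lay at 0.22 to 0.47. H2-Eb1, at 0.19, was the only gene of antigen presentation among these 10.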

How the data were processed

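The authors deposited FPKM values for 55335 genes in 6 libraries, 1 column each, and the table holds no counts. The submitters' processing notes name STAR, FastQC 0.11.2, DESeq2 1.16.1, StringTie 1.3.1c and the build GRCm39, without a role for each. Not given in the sources used here are the annotation release, the strand and how fragments with several matches were handled. Symbols came from a table of gene names, matched by gene ID for 55154 IDs, and transcripts from GENCODE M21 (GRCm38).

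The 12860 genes whose mean over the libraries reached 1 FPKM entered 1 limma fit (version 3.58.1, R 4.3.3) of log2(FPKM + 1), two-sided, with a variance trend and no covariate, and adjusted by Benjamini-Hochberg over them. The procedure was tested on simulated data. Levels under about 1 FPKM rest on few fragments. Fragments per gene were estimated from depth, FPKM and the longest coding transcript. The members, gene lists, rule for naming genes and most alternatives were chosen with earlier results of these data known. The rule names all members, from each list the 2 smallest p and any call against its direction, 10 partner genes and the 5 genes nearest to each class. Alternatives were pseudocounts, filters, scalings, a replicate block, other variance estimates, a muscle covariate and left-out libraries, and the macrophage counts under them were added after seeing the data. A few further genes named were chosen after their values were seen. Some genes of the lists are not reported here.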

Additional observations from a re-analysis of the deposited data

How the results depend on the processing

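Of the 10 members, 8 to 9 fell in fits that left out 1 library, 7 without both muscle-rich libraries, and 9 under the other alternatives, among them an adjusted p of 0.1. The differences ranged over the left-out libraries from -0.738 to -0.6 for the class I mean, from -2.113 to -1.771 for the class II mean and from -1.513 to -1.103 for class II minus class I. The class II mean was -2.28 with a pseudocount of 0.01, which weighs low values more. Over all 6 libraries 5516 genes were called, and 3728 to 5476 in fits without 1 library (1871 to 2942 lower, 1857 to 2534 higher, with 1871 lower without control replicate 3). Among genes of at least 5 FPKM, where fewer genes were tested, 3308 were called (1612 lower, 1696 higher). Marchf8, a class II ubiquitin ligase gene, reversed, from 0.17 (adjusted p = 0.783) to -0.413 without control replicate 3 (limma, Benjamini-Hochberg adjusted p = 0.0396), where its level was lowest, and ranged from -0.413 to 0.473 over the left-out libraries. Correlations of deviations between same-numbered libraries were -0.103, 0.043 and -0.055, which shows no pairing by number but cannot exclude one. With a replicate block 4596 genes were called (2324 lower, 2272 higher) and the same number of members, 9, fell. Genes under about 1 FPKM, such as Ciita, rest on few fragments.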
